A study of Homo sapiens with 10 samples.

Results

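The genes described here make and handle cholesterol and fatty acids. They are 37 of the 60642 gene symbols in the deposited table, chosen by name, with earlier results of these data known. Of these, 5 regulate the pathway, 17 encode enzymes of sterol synthesis, 11 encode enzymes of fatty acid synthesis, elongation and desaturation, and 4 act in fatty acid uptake, binding and oxidation. They were followed in untreated cells of 5 human prostate cancer lines, LNCaP, DUCAP, VCAP, DU145 and PC3, in 10 samples, 2 biological repeats of each. All lines grew in phenol-red free RPMI with fetal bovine serum and were taken while growing exponentially. LNCaP was the FGC clone, and DUCAP came as a gift from another laboratory. The labels spell 3 of the lines DuCaP, VCaP and DU-145 in places. Each line is a single model, so a p-value here measures the spread between the repeats of these lines and not the spread among prostate tumors.

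Cells build cholesterol from acetyl-CoA through mevalonate, isoprenoid units, squalene and lanosterol, and they build fatty acids from the same acetyl-CoA through malonyl-CoA. Both routes are switched on by the sterol regulatory element binding proteins, encoded by SREBF1, which acts mainly on fatty acid genes, and SREBF2, which acts mainly on sterol genes. SCAP escorts these proteins out of the endoplasmic reticulum when sterols are low, and INSIG1 and INSIG2 hold them back when sterols are high. Prostate cells are known for making lipid under androgen, and high levels of FASN and AMACR are familiar features of prostate cancer.

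Levels are given as TPM, each gene's share of the transcripts in a sample, corrected for transcript length, so levels of different genes can be compared. A TPM depends on what else the sample holds. The 37 mitochondrial genes took 32.1 to 36.0% of the TPM in DUCAP and VCAP and 12.7 to 22.5% in the other lines, and the median of all tested genes was 0.54 lower in DUCAP on the log2 scale than in the mean of the other 4 lines. Counts are therefore given for the deposited TPM and, beside them, after median-ratio scaling, which sets the typical gene level in all samples and moved that median to −0.10. All 8 luminal prostate markers looked at stood at 28.3 TPM or more in LNCaP, DUCAP and VCAP, whereas 4 of them exceeded 10 TPM in DU145 and 5 in PC3. Among these, KRT8, KRT18 and EPCAM were present in every sample at 23.4 TPM or more, whereas KLK3 was at 0.77 TPM or less in DU145 and PC3. Among markers of other cell types, PTPRC, PECAM1 and DCN stayed at 0.79 TPM or less, COL1A1 reached 38.0 TPM in PC3, ACTA2 reached 12.9 TPM in LNCaP and ALB reached 27.8 TPM in VCAP.

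RefSeq promoter windows (GRCh38.p14, from 250 bases before to 50 bases after the annotated start) were matched for 33 of the 37 genes. No window was matched for SQLE, FABP5, FASN and FDFT1. The sterol regulatory element was searched as TCACNCCAC, the box read by the factor NF-Y as CCAAT, the GC box read by Sp1 as GGGCGG and the E-box as CACGTG, each on both strands and in any of a gene's windows. Within the windows, different motifs shared 2 bases in all. A CCAAT box was found in 13 of 15 sterol synthesis genes (86.7%) and in 7 of 10 fatty acid synthesis genes (70.0%) but in 2 of 5 regulators (40.0%), compared with 42.1% of 15842 protein-coding genes and 34.6% of all 35116 windows. A GC box was found in 28 of 33 members (84.8%), compared with 64.3% of protein-coding genes and 45.0% of all windows. The E-box was found in 5 members (15.2%), compared with 10.9% of protein-coding genes and 7.26% of all windows. The sterol regulatory element, spelled this strictly, was found in SREBF2 alone among the members, and in 1.51% of protein-coding genes and 1.13% of all windows. Members with more than 1 window (10 of 33) had more chances of a match. A match is a string of letters and does not show binding.

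The windows of 6 members are shown because the results turn on them. They are SREBF2, HMGCS1, which opens the mevalonate route, and the 4 sterol enzymes with the widest range across lines for which a window was matched. Capitals mark CCAAT on either strand, which reads ATTGG on the reverse strand, and in SREBF2 also the sterol regulatory element. In NSDHL a forward and a reverse box overlap.
SREBF2 promoter, chr22:41832855-41833154, plus strand: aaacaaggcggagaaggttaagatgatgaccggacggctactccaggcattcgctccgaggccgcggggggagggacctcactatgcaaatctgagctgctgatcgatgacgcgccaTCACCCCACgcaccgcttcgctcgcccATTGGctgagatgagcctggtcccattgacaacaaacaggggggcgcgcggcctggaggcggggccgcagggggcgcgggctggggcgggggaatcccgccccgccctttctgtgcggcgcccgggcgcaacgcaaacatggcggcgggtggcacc
HMGCS1 promoter, chr5:43313363-43313662, minus strand: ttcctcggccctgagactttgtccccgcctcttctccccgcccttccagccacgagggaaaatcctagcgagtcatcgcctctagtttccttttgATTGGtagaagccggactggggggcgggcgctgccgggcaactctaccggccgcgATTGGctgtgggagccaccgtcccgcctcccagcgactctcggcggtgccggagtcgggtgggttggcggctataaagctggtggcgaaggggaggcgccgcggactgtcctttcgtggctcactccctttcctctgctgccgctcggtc
MVD promoter, chr16:88663042-88663341, minus strand: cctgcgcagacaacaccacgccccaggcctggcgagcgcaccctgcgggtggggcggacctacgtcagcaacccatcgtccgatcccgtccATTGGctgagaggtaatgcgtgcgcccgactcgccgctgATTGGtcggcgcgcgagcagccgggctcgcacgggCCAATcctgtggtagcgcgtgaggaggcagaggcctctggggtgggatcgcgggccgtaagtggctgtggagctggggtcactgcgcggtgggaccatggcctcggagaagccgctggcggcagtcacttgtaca
FDPS promoter, chr1:155308616-155308915, plus strand: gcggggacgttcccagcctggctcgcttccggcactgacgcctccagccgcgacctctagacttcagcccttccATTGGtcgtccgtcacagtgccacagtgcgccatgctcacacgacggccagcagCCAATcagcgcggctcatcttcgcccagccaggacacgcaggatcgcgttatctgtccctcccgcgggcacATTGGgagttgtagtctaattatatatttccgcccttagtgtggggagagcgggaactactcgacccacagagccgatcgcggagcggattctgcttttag
NSDHL promoter, chrX:152830813-152831112, plus strand: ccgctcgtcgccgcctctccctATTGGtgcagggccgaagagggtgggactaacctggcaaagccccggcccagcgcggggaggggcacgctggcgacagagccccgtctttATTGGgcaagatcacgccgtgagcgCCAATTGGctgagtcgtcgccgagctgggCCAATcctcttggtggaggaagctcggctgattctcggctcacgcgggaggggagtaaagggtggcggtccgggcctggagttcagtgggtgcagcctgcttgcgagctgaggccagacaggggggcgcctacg
HSD17B7 promoter, chr1:162790452-162790751, plus strand: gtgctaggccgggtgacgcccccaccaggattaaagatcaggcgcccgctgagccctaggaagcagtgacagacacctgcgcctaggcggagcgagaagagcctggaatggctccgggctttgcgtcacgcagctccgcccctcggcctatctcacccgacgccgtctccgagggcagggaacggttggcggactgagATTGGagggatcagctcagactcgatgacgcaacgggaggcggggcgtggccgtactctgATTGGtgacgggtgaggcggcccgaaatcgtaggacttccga

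In the SREBF2 window the sterol regulatory element began 133 bases before the start and the CCAAT box 106 bases before it. The windows held 2 CCAAT boxes in HMGCS1, 3 in MVD, 3 in FDPS, 5 in NSDHL and 2 in HSD17B7.

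Of the 37 members, 36 were expressed at 1 TPM or more in at least 2 samples and could be tested. CD36, which encodes a fatty acid uptake receptor, lay between 0.01 and 0.33 TPM in all 10 samples and was not tested. Across the 5 lines, 35 of 36 members differed by limma's F test with Benjamini-Hochberg adjustment over 17520 genes, where 90.8% of all tested genes did, so the count itself sets the members apart in no way. The exception was MSMO1, the sterol C4 methyl oxidase, at 30.6 to 65.0 TPM (adjusted p = 0.195, limma). Line means spanned 2-fold or more on the log2(TPM + 1) scale in 31 members (86.1%), compared with 83.1% of tested genes, and the median span was 1.87 for members and 1.69 for all tested genes. LNCaP, DU145 and PC3 each held the highest mean of log2(TPM + 1) for 10 members (27.8%), close to their 26.8, 25.5 and 29.7% of all tested genes. DUCAP held it for 6 (16.7%, against 5.34% of tested genes) and VCAP for none (against 12.6%). VCAP held the lowest mean for 13 members (36.1%), against 20% of tested genes. After median-ratio scaling DUCAP held the highest mean for 11 members (30.6%, against 16.2% of tested genes) and VCAP for 2, SCAP and LSS (5.56%, against 17.9%). VCAP then held the lowest mean for 8 (22.2%, against 16.9%). These are bulk samples, in which fewer cells with a transcript and less of it per cell cannot be told apart.

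**Figure D1:**
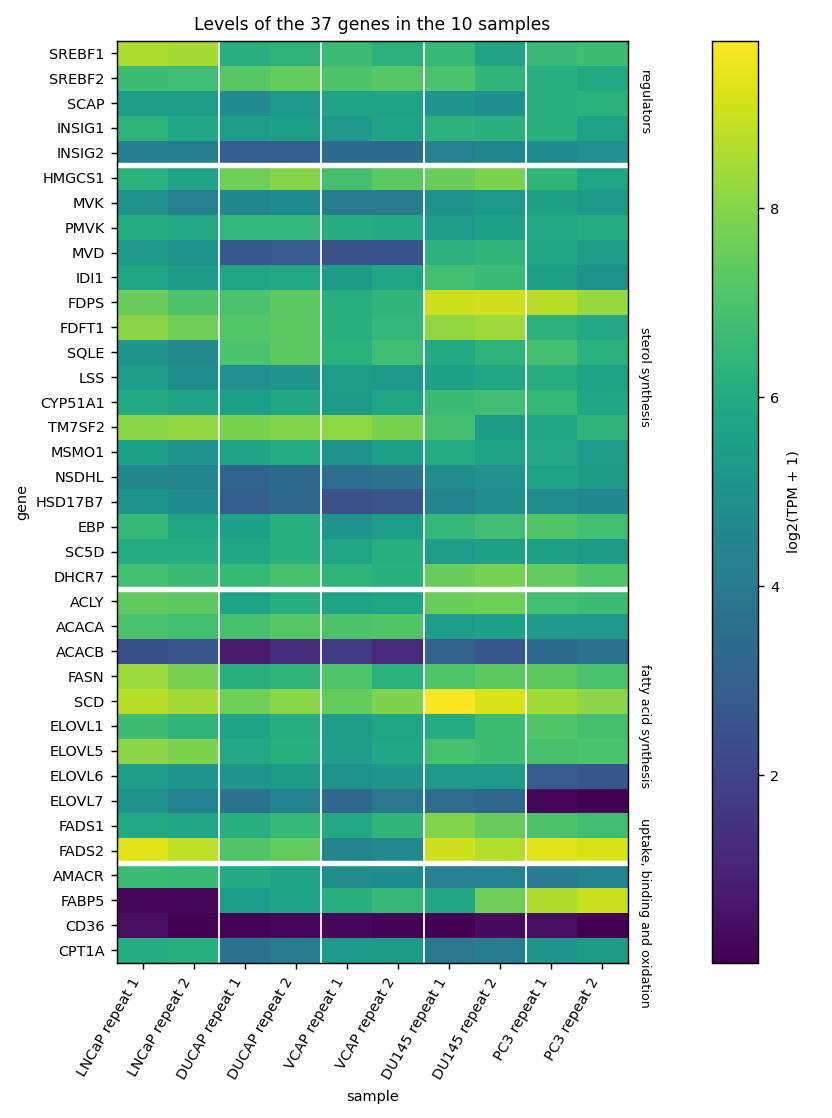
Levels of the 37 genes as log2(TPM + 1), with 1 row per gene grouped by role and 1 column per sample, 2 repeats per line. SREBF1 is brightest in both LNCaP samples, MVD, NSDHL and HSD17B7 are dark in DUCAP and VCAP, FADS2 is dark in VCAP, ELOVL7 is darkest in PC3 and FABP5 is dark in LNCaP.

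Among the regulators, SREBF1 had the widest range. Its level was 375 and 352 TPM in LNCaP, 104 and 76.2 in VCAP, 71.2 and 81.5 in DUCAP, 91.8 and 51.0 in DU145, and 96.8 and 106 in PC3. Both LNCaP samples stood above the other 8, and the samples of the other 4 lines overlapped in a chain. LNCaP was higher than the mean of the other 4 lines by 2.12 ± 0.21 on the log2 scale (limma, SE, adjusted p = 4.92e-05), and by 1.81 after median-ratio scaling.

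SREBF2 followed another order. Its level was 151 and 177 TPM in DUCAP, 132 and 149 in VCAP, 107 and 109 in LNCaP, 126 and 83.5 in DU145, and 73.8 and 60.3 in PC3. All 4 samples of DUCAP and VCAP lay above the other 6, and both PC3 samples lay below all others. DUCAP passed the test as higher (0.69 ± 0.16, adjusted p = 0.00545, limma) and PC3 as lower (−0.91 ± 0.16, adjusted p = 0.00119). The TPM of SREBF1 was 3.49 and 3.22 times that of SREBF2 in the LNCaP samples and 1.31 and 1.76 times in PC3. In DUCAP, VCAP and DU145 it was lower than that of SREBF2, at 0.460 to 0.790 times.

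INSIG1, itself a known target of SREBP proteins, had the narrowest range of the regulators, at 81.5 and 57.4 TPM in LNCaP, 37.3 and 51.8 in VCAP, 40.5 and 46.2 in DUCAP, 78.6 and 72.6 in DU145, and 73.2 and 50.4 in PC3. Its repeats overlapped between neighbouring lines in the order. INSIG2 was the sharper of the pair, with 6.70 and 6.65 TPM in DUCAP, 9.86 and 10.2 in VCAP, 17.8 and 17.2 in LNCaP, 18.1 and 21.5 in DU145, and 26.4 and 29.8 in PC3. No pair of lines overlapped for INSIG2. SCAP was highest in PC3 at 73.1 and 75.9 TPM and ranged from 25.4 to 49.9 TPM elsewhere.

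**Figure D2:**
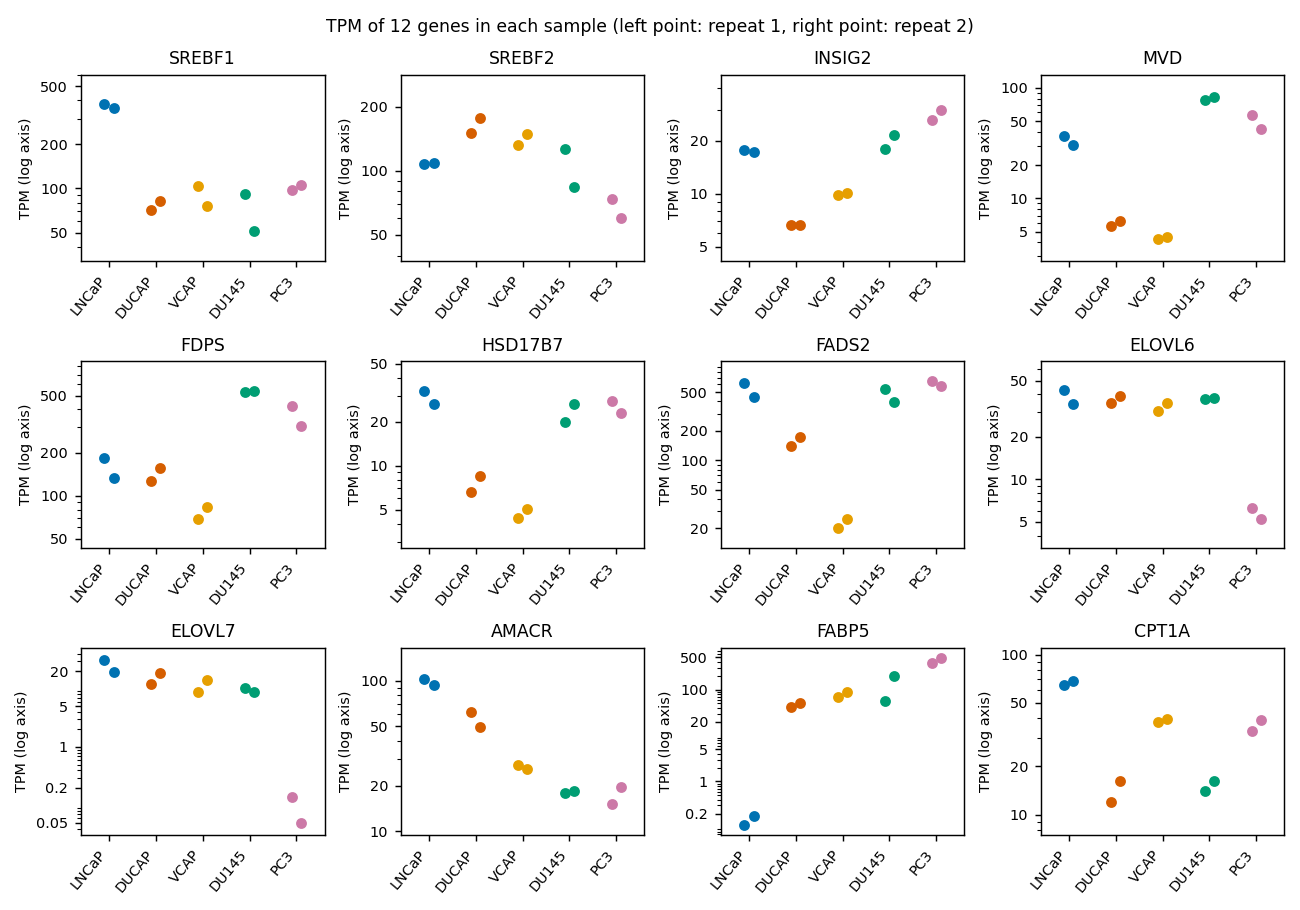
TPM of 12 members in each sample on log axes, with repeat 1 left and repeat 2 right for each line. LNCaP stands apart for SREBF1 and FABP5, DUCAP and VCAP for INSIG2, MVD and HSD17B7, VCAP for FADS2, and PC3 for ELOVL6 and ELOVL7.

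The early steps of sterol synthesis lead from acetyl units to farnesyl diphosphate. HMGCS1, the entry enzyme, was highest in DUCAP at 193 and 253 TPM and in DU145 at 189 and 229, and lowest in LNCaP at 74.3 and 52.1 and in PC3 at 83.8 and 54.4, with VCAP between them at 117 and 158. LNCaP and PC3 passed as lower by −1.19 ± 0.22 and −1.05 ± 0.22 (adjusted p = 0.00153 and 0.00271, limma). The kinases MVK and PMVK, which phosphorylate mevalonate, had narrower ranges, at 16.3 to 47.7 TPM and 41.4 to 87.6 TPM. MVK was highest in PC3 and PMVK in DUCAP.

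MVD, the decarboxylase that makes isopentenyl diphosphate, had the widest range of the 17 sterol enzymes. It was at 77.4 and 82.4 TPM in DU145, 56.5 and 42.6 in PC3, 36.7 and 30.5 in LNCaP, 4.34 and 4.48 in VCAP, and 5.66 and 6.19 in DUCAP. The 5 lines did not overlap, and DUCAP and VCAP together lay far below the other 6 samples. The highest line mean was 18.1 times the lowest. Against the mean of the other 4 lines, VCAP was at −2.53 ± 0.13, DUCAP at −2.09 ± 0.13 and DU145 at 2.34 ± 0.13 (adjusted p = 2.75e-06, 6.43e-06 and 2.19e-06, limma). After median-ratio scaling these differences were −2.18, −1.49 and 2.03. IDI1, which isomerises the product of MVD, showed no such drop. It was at 52.4 and 60 TPM in DUCAP and 39.8 and 54.6 in VCAP, among 31.9 to 53.0 in LNCaP and PC3, and it was highest in DU145 at 116 and 99.9 TPM.

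FDPS, which joins these units to farnesyl diphosphate, was the most abundant sterol enzyme in DU145 and PC3. It was at 527 and 541 TPM in DU145, 424 and 307 in PC3, 184 and 132 in LNCaP, 68.98 and 83.9 in VCAP, and 127 and 157 in DUCAP. LNCaP and DUCAP overlapped and the other lines did not. FDFT1, the squalene synthase that takes the next step, did not follow FDPS in PC3. It was at 289.5 and 326 TPM in DU145, 269 and 199.9 in LNCaP, 68.9 and 87.8 in VCAP, 141 and 159 in DUCAP, and 76.0 and 58.9 in PC3. The TPM of FDFT1 was thus 1.46 and 1.51 times that of FDPS in LNCaP and 0.179 and 0.192 times in PC3. PC3 passed as higher for FDPS (1.05 ± 0.17, adjusted p = 0.000728, limma) and as lower for FDFT1 (−1.33 ± 0.16, adjusted p = 0.00012).

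SQLE, the squalene epoxidase that acts after FDFT1, was lowest in LNCaP. It was at 33.4 and 24.7 TPM in LNCaP, 62.5 and 81.0 in DU145, 114 and 75.3 in PC3, 75.7 and 108 in VCAP, and 126 and 159.8 in DUCAP. Both LNCaP samples lay below the other 8, and DU145, PC3 and VCAP overlapped. LNCaP was lower by −1.71 ± 0.21 and DUCAP higher by 1.13 ± 0.21 (adjusted p = 0.000208 and 0.00189, limma). LSS, which closes the sterol rings, had a narrow range of 28.1 to 67.9 TPM, and CYP51A1, which removes the 14-methyl group of lanosterol, ranged from 39.1 TPM in VCAP to 109.9 TPM in DU145.

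TM7SF2, a sterol C14 reductase, divided the lines in another way. It was at 268 and 288 TPM in LNCaP, 278 and 224 in VCAP, and 224 and 243 in DUCAP, against 118 and 39.6 in DU145 and 57.8 and 80.1 in PC3. All 6 samples of the first 3 lines lay above the other 4, and the DU145 repeats differed 2-fold or more. LNCaP passed as higher by 1.11 ± 0.33 (adjusted p = 0.0192, limma), a call that was lost after median-ratio scaling (adjusted p = 0.077) and without either LNCaP repeat.

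NSDHL and HSD17B7, which act in succession to remove the methyl groups at carbon 4, were both low in DUCAP and VCAP. NSDHL was at 7.92 and 9.79 TPM in DUCAP and 10.7 and 12.1 in VCAP, against 21.8 and 20.7 in LNCaP, 26.8 and 30.3 in DU145, and 50.1 and 39.2 in PC3. HSD17B7 was at 6.57 and 8.58 TPM in DUCAP and 4.39 and 5.07 in VCAP, against 32.3 and 26.3 in LNCaP, 20.1 and 26.5 in DU145, and 27.6 and 22.8 in PC3. For both genes all 4 DUCAP and VCAP samples lay below the other 6. MSMO1, the oxidase of the same demethylation, was not wholly lower there, with 51.1 and 64.6 TPM in DUCAP and 30.6 and 46.8 in VCAP.

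The last steps had smaller ranges. EBP, the sterol isomerase, ranged from 32.3 TPM in VCAP to 139.5 TPM in PC3, and DHCR7, which makes cholesterol from its direct precursor, from 73.8 TPM in VCAP to 216 TPM in DU145. SC5D, the C5 desaturase, had the narrowest range of the 17, at 63.1 and 66.2 TPM in LNCaP, 53.5 and 70.2 in VCAP, 57.1 and 71.7 in DUCAP, 39.9 and 46.4 in DU145, and 45.8 and 39.7 in PC3. LNCaP, DUCAP and VCAP overlapped with each other and lay above DU145 and PC3. In total DU145 had the highest mean for 6 of the 17 sterol enzymes (35.3%, against 25.5% of all tested genes), MVD, IDI1, FDPS, FDFT1, CYP51A1 and DHCR7, and it held the same 6 after median-ratio scaling (against 21.4%). VCAP had the lowest mean for 8 (47.1%, against 20%), MVK, MVD, FDPS, CYP51A1, MSMO1, HSD17B7, EBP and DHCR7. After median-ratio scaling VCAP was lowest for 4 of these (23.5%, against 16.9%), MVD, FDPS, HSD17B7 and EBP, while LNCaP was lowest for 7 (41.2%, against 21.6%), HMGCS1, MVK, SQLE, LSS, CYP51A1, MSMO1 and DHCR7.

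Fatty acid synthesis starts with ACLY, which releases acetyl-CoA from citrate. It was highest in DU145 at 191 and 195 TPM and in LNCaP at 166 and 160.1, at 113 and 104 in PC3, and lowest in DUCAP at 50.1 and 67.6 and in VCAP at 49.7 and 54.9. ACACA, the main acetyl-CoA carboxylase, followed another order, at 121 and 150.5 TPM in DUCAP, 130 and 139 in VCAP, 128 and 111 in LNCaP, 44.2 and 47.5 in DU145, and 37.0 and 36.9 in PC3. Its paralog ACACB, the isoform of the mitochondrial surface, was at 0.68 and 1.45 TPM in DUCAP, 2.28 and 1.24 in VCAP, 4.21 and 5.07 in LNCaP, 7.28 and 5.12 in DU145, and 9.69 and 11.6 in PC3. Line means had opposite orders between the 2 carboxylases, and the TPM of ACACA was 57.0 to 178 times that of ACACB in DUCAP and VCAP and 3.17 and 3.82 times in PC3. PC3 was lower for ACACA by −1.41 ± 0.11 and higher for ACACB by 1.59 ± 0.21 (adjusted p = 1.17e-05 and 0.000243, limma).

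FASN, the fatty acid synthase, was at 319 and 219.5 TPM in LNCaP, 135 and 75.7 in VCAP, 134 and 156 in DU145, 161 and 126 in PC3, and 70.3 and 83.7 in DUCAP. Both LNCaP samples lay above the other 8, whose lines overlapped. LNCaP was higher by 1.23 ± 0.23 (adjusted p = 0.00186, limma), and by 0.92 after median-ratio scaling. SCD, which puts the first double bond into saturated fatty acids, was the most abundant transcript of the 37 genes in a single sample. It was at 873 and 583 TPM in DU145, 427 and 353 in LNCaP, 339.8 and 268 in PC3, 177 and 234 in VCAP, and 195 and 261 in DUCAP.

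The elongases, which lengthen fatty acid chains, had separate patterns. ELOVL5, which elongates polyunsaturated chains, was highest in LNCaP at 268 and 231 TPM, with 121 and 107 in DU145, 123 and 126 in PC3, 42.6 and 57.0 in VCAP, and 58.6 and 69.8 in DUCAP. ELOVL6, which elongates saturated chains, was at 42.8 and 34.4 TPM in LNCaP, 30.7 and 34.7 in VCAP, 34.6 and 39.2 in DUCAP, and 37.0 and 37.6 in DU145, but at 6.24 and 5.23 in PC3. Both PC3 samples lay below the other 8, which overlapped (−2.47 ± 0.13, adjusted p = 9.17e-07, limma).

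ELOVL7 was at 30.8 and 19.0 TPM in LNCaP, 8.83 and 14.3 in VCAP, 11.97 and 18.8 in DUCAP, 10.2 and 8.68 in DU145, and 0.14 and 0.05 in PC3. PC3 was lower by −3.78 ± 0.25 and LNCaP higher by 1.87 ± 0.25 (adjusted p = 3.48e-06 and 0.000258, limma). ELOVL1 had the narrowest range of the 11 fatty acid genes, at 105 and 83.0 TPM in LNCaP, 44.0 and 52.5 in VCAP, 51.3 and 66.8 in DUCAP, 65.0 and 107 in DU145, and 138 and 118 in PC3. PC3 lay above the other samples for ELOVL1, and the other lines overlapped.

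FADS1 and FADS2 encode the delta-5 and delta-6 desaturases and run in opposite directions on chromosome 11. Their starting ends overlap, so that each start lies within the other gene. RefSeq places FADS1 at chr11:61799627-61817003 and FADS2 at chr11:61816203-61867354 (GRCh38.p14), with 800 bases, or 599 bases from a second FADS2 start, between the starts. FADS2 had the widest range of the 11 fatty acid genes. It was at 644 and 581 TPM in PC3, 621 and 441 in LNCaP, 538 and 399 in DU145, 20.1 and 24.8 in VCAP, and 139 and 173 in DUCAP. PC3, LNCaP and DU145 overlapped, DUCAP lay below them and VCAP below DUCAP. VCAP was lower than the mean of the rest by −4.06 ± 0.17 (adjusted p = 1.06e-06, limma), and by −3.68 after median-ratio scaling. FADS1 was at 60.3 and 52.6 TPM in LNCaP, 58.9 and 83.3 in VCAP, 69.5 and 89.4 in DUCAP, 244 and 180.5 in DU145, and 132 and 109 in PC3. These neighbouring genes thus did not share an order of lines. The TPM of FADS2 was 10.3 and 8.38 times that of FADS1 in LNCaP, 2.00 and 1.94 times in DUCAP, and 0.342 and 0.298 times in VCAP.

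The 4 genes of uptake, binding and oxidation fell into no common order. AMACR, the racemase that prepares branched-chain fatty acids for peroxisomal oxidation, was at 103 and 94.0 TPM in LNCaP, 27.4 and 26.0 in VCAP, 62.4 and 49.4 in DUCAP, 18.1 and 18.6 in DU145, and 15.2 and 19.8 in PC3. LNCaP was higher by 1.86 ± 0.13 (adjusted p = 8.82e-06, limma). CPT1A, which carries fatty acids into mitochondrial oxidation, was also highest in LNCaP, at 65.1 and 68.6 TPM, with 37.9 and 39.4 in VCAP, 33.4 and 39.2 in PC3, 14.0 and 16.3 in DU145, and 11.95 and 16.3 in DUCAP. VCAP and PC3 overlapped, as did DU145 and DUCAP. CD36 stood at 0.33 and 0.05 TPM in LNCaP, 0.17 and 0.09 in VCAP, 0.09 and 0.13 in DUCAP, 0.01 and 0.23 in DU145, and 0.33 and 0.03 in PC3, with no order beyond the repeats.

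FABP5, a fatty acid carrier of the cytosol, had the widest range of all members. It was at 386 and 496 TPM in PC3, 57.5 and 202 in DU145, 70.3 and 90.1 in VCAP, 40.8 and 50.6 in DUCAP, and 0.11 and 0.18 in LNCaP. The DU145 repeats spanned those of VCAP. PC3 was higher by 4.07 ± 0.38 (adjusted p = 2.96e-05, limma), a difference to a mean that includes the near-absent level in LNCaP. Against such a mean VCAP also passed as higher (1.01 ± 0.38, adjusted p = 0.0446), a call that was lost in 8 of the 10 fits that left out 1 sample. The pseudogene row FABP5P7 was at 54.4 and 70.2 TPM in PC3 and at 0 in LNCaP, and it came to 11.9 to 17.97% of FABP5 in the 8 samples of the other 4 lines. Reads of the gene and of this copy could not be told apart here. Its level moved with that of FABP5 and its part in the result was not tested.

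Each line was then set against the mean of the other 4. These 5 contrasts share samples, so their counts are not independent of each other. In LNCaP 15 members passed as higher and 5 as lower, where 38.2 and 24.2% of all tested genes did. After median-ratio scaling the counts were 13 and 13, where 27.8 and 32.4% of tested genes passed. Under all 4 scalings tried (deposited TPM, quantile normalization, median-ratio scaling, and TPM rescaled without mitochondrial genes), 13 members were higher and 5 lower, with 27.6 and 23.6% of all tested genes as background. Fatty acid synthesis made up 7 of these 13 higher calls. Of its 11 genes, ACLY, ACACA, FASN, ELOVL5, ELOVL6, ELOVL7 and FADS2 were higher and FADS1 was lower under every scaling tried. For ACACA the mean includes the low levels in DU145 and PC3, and LNCaP had a lower mean than DUCAP and VCAP. For ACLY it includes the low levels in DUCAP and VCAP, and both LNCaP samples lay below DU145. FADS2 was also called as higher in DU145 and PC3, which overlapped LNCaP, each time against a mean that includes the low level in VCAP. Of the 17 sterol enzymes, MVD, FDFT1 and HSD17B7 were higher, and HMGCS1, FDPS and SQLE lower. For MVD the mean includes the low levels in DUCAP and VCAP, and LNCaP lay below DU145 and PC3. SREBF1, AMACR and CPT1A completed the higher genes and FABP5 the lower ones.

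In DU145 19 members passed as higher and 8 as lower, against a background of 40.7 and 22.3%, and the counts were 15 and 9 after median-ratio scaling (background 30.3 and 32.1%). Calls under all 4 scalings numbered 14 higher and 8 lower (background 27.8 and 22.1%). The higher genes were 8 sterol enzymes, HMGCS1, MVD, IDI1, FDPS, FDFT1, CYP51A1, HSD17B7 and DHCR7, with ACLY, SCD, ELOVL6, FADS1, FADS2 and FABP5. The largest positive differences after MVD were FDPS (1.76 ± 0.17), FABP5 (1.56 ± 0.38), FADS1 (1.41 ± 0.18), FDFT1 (1.40 ± 0.16) and SCD (1.39 ± 0.20). For FABP5 the mean again includes the near-absent level in LNCaP, and DU145 repeat 1 lay below both VCAP samples. The lower genes were SREBF1, SCAP, PMVK, TM7SF2, SC5D, ACACA, AMACR and CPT1A, so the line with the most sterol enzymes called as higher was called as lower for SREBF1 (−0.87 ± 0.21, adjusted p = 0.00639, limma). That call is against a mean that includes the high level in LNCaP, and the DU145 samples overlapped those of DUCAP and VCAP. For SREBF2, DU145 was at −0.14 ± 0.16 (adjusted p = 0.464).

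In PC3 16 members passed as higher and 10 as lower, against 43.2 and 24.7% of tested genes, and 11 and 14 after median-ratio scaling (background 31.8 and 33.9%). Under all 4 scalings 10 were higher and 10 lower (background 29.2 and 24.2%). Sterol enzymes stood on both sides within 1 line, with MVD, FDPS, NSDHL, HSD17B7 and EBP higher and HMGCS1, IDI1, FDFT1, TM7SF2 and SC5D lower. NSDHL was higher by 1.43 ± 0.14 and TM7SF2 lower by −1.41 ± 0.33 (adjusted p = 3.13e-05 and 0.00557, limma). Without PC3 repeat 1 the call of TM7SF2 was lost and the count of higher members was 9.

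In DUCAP 8 members passed as higher and 15 as lower, against 11.1 and 57.7% of tested genes. The direction of the balance turned with the scaling, to 14 higher and 7 lower after median-ratio scaling, where 26 and 34% of tested genes passed. Under all 4 scalings 8 were higher and 7 lower (background 11 and 30.1%). The higher genes were SREBF2, HMGCS1, PMVK, SQLE, ACACA, ELOVL6, ELOVL7 and AMACR, and the lower ones INSIG2, MVD, NSDHL, HSD17B7, ACLY, ACACB and CPT1A. HMGCS1 (1.07 ± 0.22) and SQLE (1.13 ± 0.21) were thus higher in the line in which MVD (−2.09 ± 0.13) and NSDHL (−1.33 ± 0.14) were lower. The ELOVL7 call is against a mean that includes the near-absent level in PC3, and DUCAP overlapped VCAP and lay below LNCaP. For AMACR both DUCAP samples also lay below LNCaP. The call of ELOVL7 was lost without DUCAP repeat 2. Without DUCAP repeat 1 the count of lower members was 8.

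In VCAP 5 members passed as higher and 18 as lower, against 17.3 and 46.6% of tested genes, and 12 and 12 after median-ratio scaling (background 27.8 and 33.1%). The higher count rested on single samples, with 1 left without VCAP repeat 2 and 3 without LNCaP repeat 2, DUCAP repeat 1, VCAP repeat 1 or PC3 repeat 1. Under all 4 scalings 5 were higher and 11 lower (background 17.2 and 31.8%). TM7SF2, ACACA, ELOVL6, FABP5 and CPT1A were higher. ELOVL6 was also called as higher in LNCaP, DUCAP and DU145, each time against a mean that includes the low level in PC3. VCAP had the lowest ELOVL6 mean of these lines, which overlapped in a chain. The lower genes were MVD, FDPS, FDFT1, NSDHL, HSD17B7, EBP, DHCR7, ACLY, ACACB, ELOVL5 and FADS2. FDPS (−1.73 ± 0.17), HSD17B7 (−1.81 ± 0.16) and ELOVL5 (−1.30 ± 0.13) followed FADS2 and MVD in size. No member passed as higher in a line under 1 scaling and as lower in the same line under another.

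**Figure D3:**
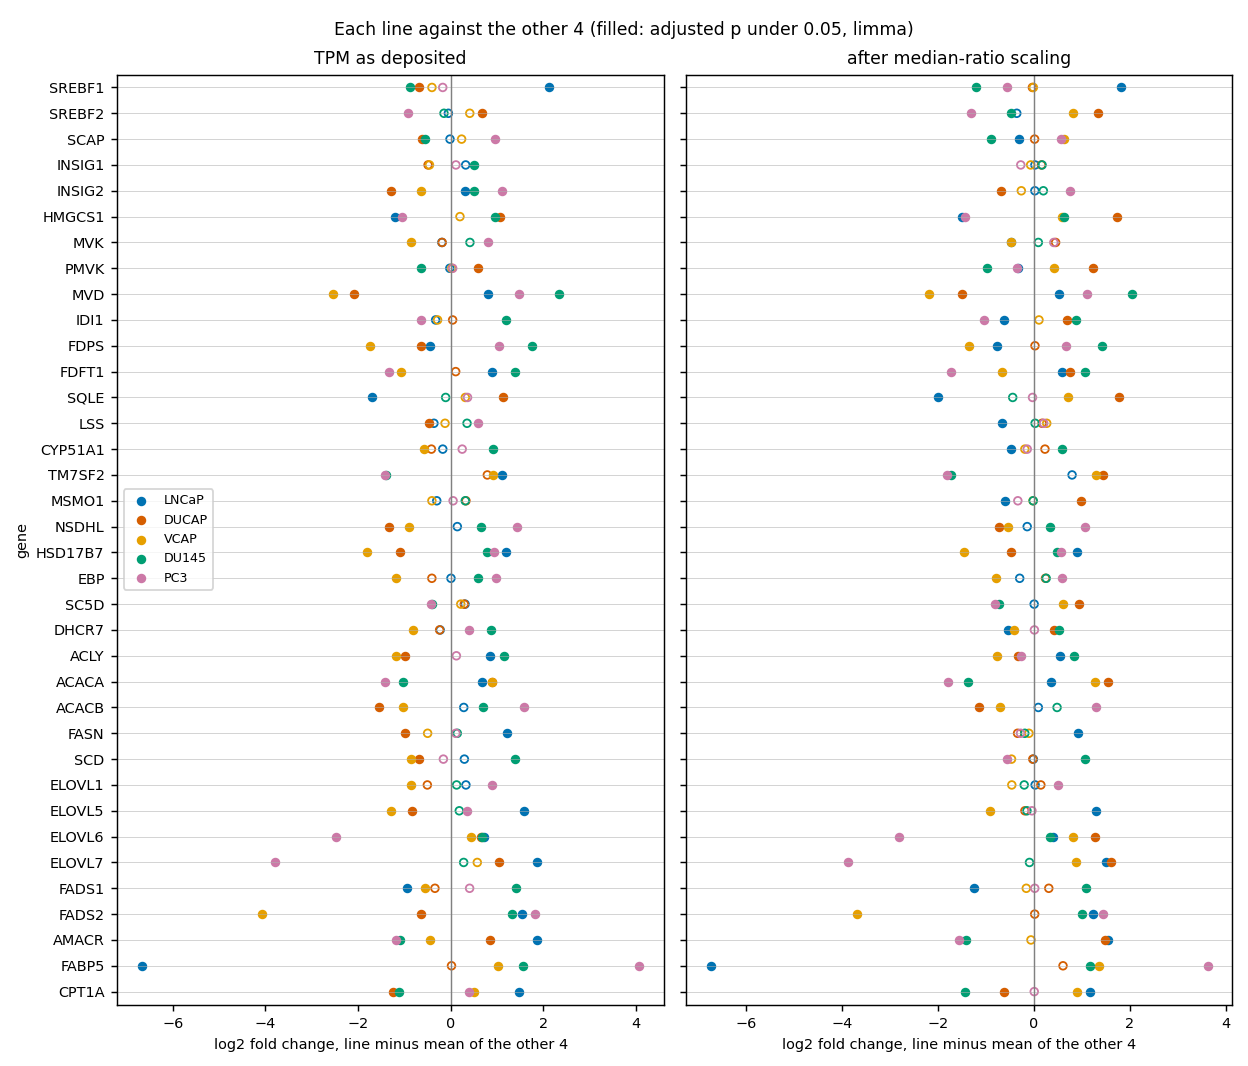
Log2 fold change of each tested member in each line against the mean of the other 4 lines, from deposited TPM on the left and after median-ratio scaling on the right. Filled points have an adjusted p under 0.05 (limma) and open points do not. The DUCAP and VCAP points sit further to the right after scaling, while MVD, FADS2, ELOVL6, ELOVL7 and FABP5 keep their outlying lines.

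DUCAP and VCAP were also set together against the other lines, a grouping made with the values already in view, as was the requirement of a call under all 4 scalings. In deposited TPM, 9 of 36 members had all 4 DUCAP and VCAP samples below the other 6, namely INSIG2, MVD, NSDHL, HSD17B7, ACLY, ACACB, SCD, ELOVL5 and FADS2, where 29.1% of all tested genes did. Only SREBF2 had all 4 above, where 6.56% of tested genes did. After median-ratio scaling 6 members remained wholly below, INSIG2, MVD, NSDHL, HSD17B7, ACACB and FADS2, and 7 were wholly above, SREBF2, PMVK, SQLE, TM7SF2, SC5D, ACACA and ELOVL6, with 14.4 and 15.7% of all tested genes below and above. The mitochondrial share of the TPM was higher in the same 4 samples, and its part was not tested beyond these scalings.

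Directly between the pair, 5 members were higher and 3 lower in DUCAP than in VCAP, where 4.24 and 14% of tested genes were. After median-ratio scaling 12 were higher and 1 lower, where 9.19 and 11.3% of tested genes were. All 4 scalings together left 5 higher and 1 lower (background 3.98 and 9.62%). The higher genes were FADS2 (2.74 ± 0.22, adjusted p = 0.000122, limma), AMACR (1.03 ± 0.17), FDFT1 (0.94 ± 0.20), FDPS (0.88 ± 0.22) and PMVK (0.45 ± 0.12), and the lower one was CPT1A (−1.41 ± 0.17, adjusted p = 0.00114). SCAP and INSIG2 were lower in deposited TPM and lost the call after median-ratio scaling. With DUCAP repeat 1, DUCAP repeat 2 or VCAP repeat 1 left out, the higher count was 2.

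LNCaP, DUCAP and VCAP were also compared with DU145 and PC3. In the first 3 lines 10 members passed as higher and 19 as lower, against 22.5 and 51.9% of tested genes, and 12 and 12 after median-ratio scaling (background 35.4 and 37.3%). Under all 4 scalings 10 were higher and 12 lower (background 22.3 and 34.1%). The higher genes were SREBF1, SREBF2, PMVK, TM7SF2, SC5D, ACACA, ELOVL6, ELOVL7, AMACR and CPT1A. The lower genes were INSIG2, MVD, FDPS, NSDHL, HSD17B7, EBP, DHCR7, ACLY, ACACB, FADS1, FADS2 and FABP5. ACACA (1.63 ± 0.09, adjusted p = 9.86e-07, limma) and FDPS (−1.88 ± 0.14, adjusted p = 4.90e-06) had no overlap between the 6 and the 4 samples. Not every line followed its group. SREBF1 in DUCAP and VCAP lay below both PC3 samples but for 1 VCAP sample, and CPT1A had its lowest mean in DUCAP. ELOVL6 in DU145, at 37.0 and 37.6 TPM, lay within the range of LNCaP, DUCAP and VCAP, and PC3 alone lay below. ELOVL7 in DU145 overlapped VCAP, SREBF2 in DU145 overlapped LNCaP, and PMVK in PC3 overlapped LNCaP and VCAP. For MVD, HSD17B7 and FADS2, LNCaP lay nearer to DU145 and PC3 than to DUCAP and VCAP, as the values by sample show. HSD17B7 had its highest mean in LNCaP, and for ACLY both LNCaP samples lay above both PC3 samples. For FABP5 the mean of the 3 lines includes the near-absent level in LNCaP, and both VCAP samples lay between the DU145 repeats.

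Summed over each group, the regulators came to 602 ± 32.9 TPM in LNCaP (SD, n = 2) and to line means of 303 to 335 in the others. SREBF1 alone made up 60 and 60.8% of the LNCaP sum, against 19.8 to 32.9% in the other lines. The sum counts INSIG1 and INSIG2, which hold the SREBP proteins back, together with SREBF1, SREBF2 and SCAP. The 17 sterol enzymes came to 2074 ± 71.9 TPM in DU145, 1451 ± 190 in DUCAP, 1435 ± 258 in PC3, 1359 ± 185 in LNCaP and 1083 ± 79.9 in VCAP. The repeats of LNCaP, DUCAP and PC3 overlapped, and DU145 stood above and VCAP below them. The 11 fatty acid genes came to 2046 ± 309 TPM in DU145, 1940 ± 326 in LNCaP, 1594 ± 154 in PC3, 912 ± 155 in DUCAP and 736 ± 50.9 in VCAP. In TPM, DUCAP and VCAP lay below all other samples. These orders depended on the scaling. After median-ratio scaling the regulators came to 501 in LNCaP, 455 in DUCAP and 412 in VCAP, against 249.2 in DU145 and 264 in PC3. The highest sterol sum was then that of DUCAP, at 2055 ± 112, ahead of DU145 at 1699 ± 23.0, and VCAP at 1333 lay above PC3 at 1135 and LNCaP at 1130. For fatty acid synthesis DUCAP at 1289 then overlapped PC3 at 1263, and VCAP alone lay below all other samples, at 905 ± 66.1.

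**Figure D4:**
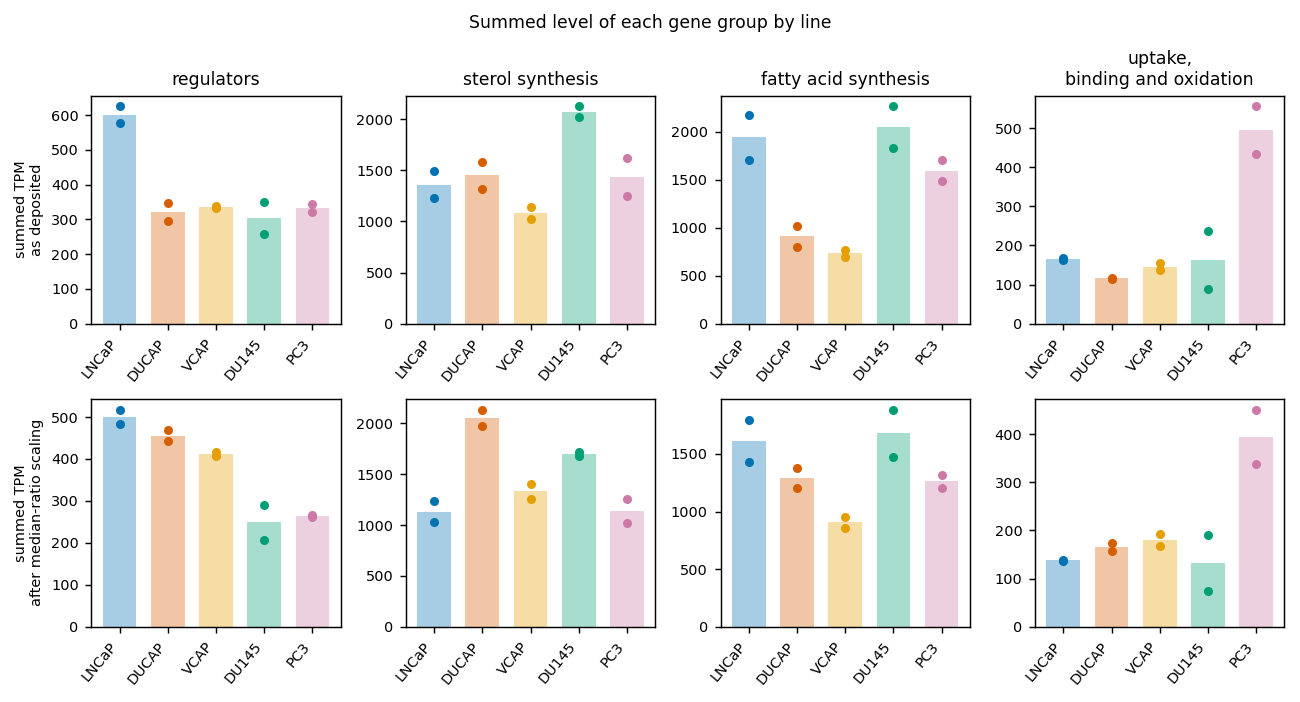
Summed TPM of each gene group by line, as deposited in the upper row and after median-ratio scaling in the lower row. Points are the 2 repeats and bars their mean. LNCaP leads for the regulators in both rows, with most of its sum from SREBF1, whereas the highest sterol synthesis sum is in DU145 above and in DUCAP below.

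The members also differed between the repeats of a line, and most sterol enzymes of a line lay on the same side. In LNCaP 15 of 17 were higher in repeat 1, with a median difference of 0.42 on the log2 scale, a factor of 1.34, where 48.4% of all tested genes were higher in repeat 1 with a median of 0. In PC3 15 of 17 were higher in repeat 1 (median 0.36), where 55.8% of all tested genes were. In DUCAP all 17 were higher in repeat 2 (median −0.29 for repeat 1 minus repeat 2), where 64.3% of all tested genes were. In VCAP 13 of 17 and in DU145 14 of 17 were higher in repeat 2, where 48.9 and 45.8% of all tested genes were. Fatty acid genes followed in LNCaP (10 of 11), DUCAP (11 of 11), VCAP (9 of 11) and PC3 (9 of 11), with the same shares of all tested genes. They did not in DU145, where 6 of 11 and 49.7% of all tested genes were higher in repeat 1.

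After median-ratio scaling 15 of 17 sterol enzymes were still higher in repeat 1 of LNCaP and of PC3, and 14, 13 and 13 of 17 in repeat 2 of DUCAP, VCAP and DU145. Of all tested genes, 46.3 and 46.2% were then higher in repeat 1 of LNCaP and of PC3. In repeat 2 of DUCAP, VCAP and DU145 the shares were 47.4, 49.97 and 43.2%. INSIG1 was on the same side as most sterol enzymes in LNCaP, DUCAP, VCAP and PC3 and on the other side in DU145. SREBF2 was on the side of most sterol enzymes in DUCAP, VCAP and PC3, nearly equal in the LNCaP repeats and on the other side in DU145. A single line with 2 repeats allows no test, and repeat numbers have no order. In TPM, 4 of the tested members differed 2-fold or more between the repeats of a line, TM7SF2 (2.98-fold) and FABP5 (3.51-fold) in DU145 and, at low levels, ACACB in DUCAP (2.13-fold) and ELOVL7 in PC3 (2.80-fold).

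**Figure D5:**
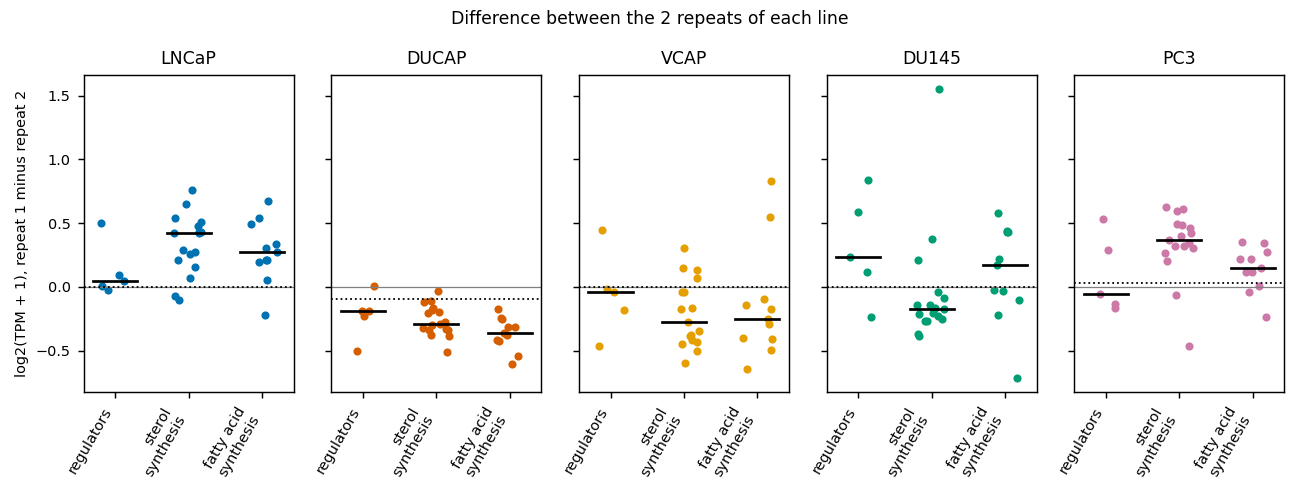
Difference of log2(TPM + 1) between repeat 1 and repeat 2 of each line for the tested regulators, sterol enzymes and fatty acid genes. Points are genes, solid bars group medians and dotted lines the median of all tested genes. Sterol enzymes lie mostly above 0 in LNCaP and PC3 and mostly below 0 in DUCAP, VCAP and DU145.

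Beyond the members, 69 further genes of sterol transport, sterol and fatty acid synthesis, activation, binding and oxidation were listed, of which 68 could be tested. The higher and lower calls numbered 34 and 12 for LNCaP, 38 and 18 for PC3, 34 and 19 for DU145, 10 and 39 for DUCAP, and 11 and 39 for VCAP (limma, deposited TPM). The shares of all tested genes are those given for the members, 38.2 and 24.2%, 43.2 and 24.7%, 40.7 and 22.3%, 11.1 and 57.7%, and 17.3 and 46.6% in the same order. After median-ratio scaling the counts were 25 and 17, 30 and 21, 27 and 22, 20 and 29, and 18 and 24. The shares of all tested genes were then 27.8 and 32.4%, 31.8 and 33.9%, 30.3 and 32.1%, 26 and 34%, and 27.8 and 33.1%. Their median span across lines was 2.17 on the log2 scale, against 1.87 for the members.

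From each further list the genes of widest range are described. TMEM97, a sterol-responsive membrane protein, was at 146 and 175 TPM in DUCAP and 124 and 155 in VCAP, and at 17.6 to 78.3 TPM in the other lines. LBR, which shares the C14 reductase activity of TM7SF2, was at 20.4 and 15.5 TPM in PC3 and at 31.3 to 79.1 TPM elsewhere. NPC1, which exports cholesterol from lysosomes, ranged widely, from 5.33 to 8.39 TPM in DUCAP and VCAP to 240.1 and 169.6 TPM in DU145. NR1H2, a sterol-sensing nuclear receptor, was likewise at 5.49 to 8.82 TPM in DUCAP and VCAP and at 41.4 to 114 TPM in the other lines.

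ME1, the malic enzyme that supplies NADPH for fatty acid synthesis, was nearly silent in DUCAP and VCAP at 0.24 to 1.20 TPM and at 25.5 to 58.5 TPM elsewhere. ELOVL2, an elongase of long polyunsaturated chains, ran the other way, with 25.6 and 32.7 TPM in VCAP, 40.2 and 54.4 in DUCAP, 9.07 and 15.6 in DU145, and at most 1.36 TPM in LNCaP and PC3. The acyl-CoA synthetases ACSL5 and ACSL1 were high in different lines, and both were low in DU145 and PC3. ACSL5 was at 88.4 to 116 TPM in DUCAP and VCAP and at most 1.18 TPM elsewhere, whereas ACSL1 was at 218 and 219.9 TPM in LNCaP and at 5.35 to 34.7 TPM elsewhere.

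FABP4, the fatty acid carrier of fat cells, was at 72.9 and 111 TPM in PC3 and listed at 0 in the other 8 samples, and SLC27A2, a transporter and synthetase of very long chains, was at 0.90 and 0.94 TPM in PC3 and at 9.89 to 15.3 TPM elsewhere. CPT1C, the brain form of the carnitine transferase, was at 25.2 and 28.7 TPM in PC3 and at 0.47 to 5.90 TPM elsewhere. ACADS, which oxidises short chains, was at 0.76 to 1.74 TPM in DUCAP and VCAP and at 10.5 to 28.5 TPM elsewhere. Of these genes of widest range, NPC1, NR1H2, ME1 and ACADS were lower in all 4 DUCAP and VCAP samples than in the other 6 in TPM, as were 29.1% of all tested genes, whereas TMEM97, ELOVL2 and ACSL5 were highest there.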

How the data were processed

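Untreated LNCaP, DUCAP, VCAP, DU145 and PC3 cells, with 2 biological repeats each, were compared, with lines and repeat numbers taken from the labels. PolyA-enriched, strand-specific libraries were read in pairs. The authors checked reads with FastQC 0.11.9, trimmed them with Trim Galore 0.6.5, aligned them to GRCh38 with STAR 2.7.2b and quantified genes with RSEM 1.3.3 (versions from the submitters' processing notes), and deposited RSEM TPM for 60642 gene symbols. TPM keep no depth, so no counting interval was computed and precision rests on the repeats.

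From there, log2(TPM + 1) was fitted with limma 3.58.1 under R 4.3.3 for the 17520 genes that reached 1 TPM in 2 or more samples. The model took all 10 samples and gave each line its own mean, the variance prior followed the mean level, and p-values were adjusted by Benjamini-Hochberg over all tested genes with a threshold of 0.05. A fold change on this scale understates that of low genes. The fit was tested on simulated data. The members and the further lists were chosen with earlier results of these data known. All 37 members are named. Values by sample are given for fixed genes and for the 6 widest and the narrowest of each synthesis group, and for the 2 widest of each further list. INSIG2, HMGCS1, IDI1, TM7SF2, MSMO1, ACLY, ACACA and SCD were added with their values in view. Scalings, pseudocount, filter, variance model, fold threshold, repeat number as a block and left-out samples were varied, and calls under all 4 scalings together were counted as an addition made after seeing the data. Python 3.11.15, numpy 2.4.6, pandas 2.3.3 and matplotlib 3.10.9 were used.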

Additional observations from a re-analysis of the deposited data

How the results depend on the processing

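Of 76 combinations of a member and a comparison that were called at 2-fold or more, none turned its direction among 1292 values under alternatives and 15 values lost the call. These were for FABP5 in VCAP, ELOVL7 in DUCAP, and TM7SF2 in LNCaP and in PC3. The counts moved more, and 2 repeats a line limit every call. Higher and lower counts with a threshold of at least 2-fold were 9 and 3 in LNCaP, 1 and 9 in VCAP, 3 and 6 in DUCAP, 9 and 4 in DU145, 7 and 7 in PC3, 2 and 1 for DUCAP against VCAP, and 5 and 10 for LNCaP, DUCAP and VCAP against DU145 and PC3. Of the 17520 tested genes, 3188 and 1735 passed this way in LNCaP, 1361 and 3368 in VCAP, and 809 and 4428 in DUCAP. In DU145 3714 and 1391 passed, and in PC3 4169 and 1600. For DUCAP against VCAP 255 and 1092 passed, and for the 3 lines 1467 and 4677. With quantile normalization the counts that moved were 10 lower in LNCaP, 14 higher and 7 lower in DUCAP, 12 higher and 11 lower in VCAP, 10 higher in PC3, 9 higher in DUCAP than in VCAP, and 12 lower in the 3 lines against DU145 and PC3. Of the 17520 tested genes, 5429 were then lower in LNCaP, 4972 higher and 5376 lower in DUCAP, and 5023 higher and 5766 lower in VCAP. In PC3 5177 were higher, in DUCAP against VCAP 1762 were higher, and in the 3 lines 6019 were lower. With median-ratio scaling the member counts that moved were 13 lower in LNCaP, 14 higher and 7 lower in DUCAP, 12 higher in VCAP, 12 higher and 1 lower in DUCAP against VCAP, and 12 lower in the 3 lines. The shares of all tested genes under this scaling are given with each comparison above. Rescaling without mitochondrial genes gave 11 higher in VCAP, where 4392 of 18288 tested genes were. With no filter on low values 3 members were higher in VCAP, a count given without the share of all genes. The log2 ratio of summed TPM of DU145 to VCAP went from 0.94 to 0.35 (median-ratio) and 0.62 (without mitochondrial genes) for sterol synthesis and from 1.48 to 0.89 and 1.17 for fatty acid synthesis, and that of PC3 to DUCAP for uptake, binding and oxidation from 2.10 to 1.26 and 1.73.

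Leaving out each sample in turn gave 33 to 35 members across the lines. Higher and lower counts ranged over 13 to 16 and 4 to 7 in LNCaP, 1 to 6 and 14 to 19 in VCAP, 6 to 9 and 8 to 17 in DUCAP, 16 to 21 and 7 to 8 in DU145, 9 to 17 and 8 to 10 in PC3, 2 to 6 and 1 to 4 for DUCAP against VCAP, and 10 throughout and 18 to 20 for the 3 lines. The lone sample left in a line was assumed to vary like those of the other lines. For DUCAP against VCAP the higher count was 3 without VCAP repeat 2, and the lower count was 1 without either repeat of LNCaP, VCAP or PC3 or without DUCAP repeat 1. Log2 ratios of sums ranged over 0.79 to 1.22 (regulators, LNCaP to DU145), 0.86 to 1.01, 1.31 to 1.62 and 1.91 to 2.26. Deviations of equal repeat numbers correlated at −0.19 to 0.25 over 10 pairs of lines. With 2 repeats a line this cannot show whether samples of equal number were handled together. The main fit did not pair samples by repeat number. The counts in this paragraph, those with the repeat number as a block included, come without shares of all tested genes. They show how the calls moved and do not set the members apart from other genes. With the repeat number as a block 34 members were called across the lines, and the counts were 14 and 4 in LNCaP, 5 and 18 in VCAP, 8 and 15 in DUCAP, 17 and 8 in DU145, 15 and 10 in PC3, 4 and 2 for DUCAP against VCAP, and 10 and 18 for the 3 lines.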
